A study of Mus musculus with 33 samples.

Results

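The regions described here are 1990 windows of 100 bp on mouse chromosomes 1 to 19 whose mean relative methylation score was exactly 0 in calvarial osteoblasts and above 0 in fibroblasts. They were taken from a deposited table of 9743 windows, 7726 of them on autosomes, which the authors named as differentially methylated regions. The windows were chosen by their calvarial-OB and fibroblast scores, so those scores are given as a description and support nothing. The iOB score, the position of the windows and the RNA of the same cell types were not part of the choice.

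The study compared tail-tip fibroblasts of Col2.3GFP mice, the induced osteoblasts (iOB) that a lentivirus carrying a transcription factor gene had made of these cells, and calvarial osteoblasts (calvarial-OB), which the labels describe as calvarial progenitor cells in osteoblast differentiation. In Col2.3GFP mice a fragment of the type I collagen promoter drives green fluorescent protein in the osteoblast lineage. For iOB the virus was removed after 24 hours, the culture was divided on day 3, and osteogenic medium replaced the growth medium on day 5. The labels list 3 methylation-enriched libraries and 3 input libraries per cell type, and give no strain, sex, age or day of harvest. Calvarial-OB came from another tissue than the tail-tip cells, so tissue of origin and osteoblast state cannot be told apart in any comparison between them. All values are averages over the cells of a culture.

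Methylation of cytosine in CpG dinucleotides is laid down by DNA methyltransferases, copied to the new strand at replication by DNMT1 with UHRF1, and removed by dilution through cell division or by oxidation through TET enzymes. Most CpGs of a mammalian genome are methylated in most cell types, and the regions that lose the mark in a lineage are often regulatory elements used there. The assay captured sonicated DNA fragments of 100 to 350 bp with a complex of the methyl-CpG-binding protein MBD2b and its partner MBD3L1 before sequencing. A window can show enrichment only when methylated fragments over it are captured and sequenced. How the score was computed from them is not given in the sources used here. A score of 0 is read here as no recorded enriched signal, and the depth behind it is unknown.

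The scores carry a trace of how they were averaged. Every fibroblast score in the table was a whole multiple of 1/300, and every calvarial-OB and iOB score a whole multiple of 1/200, within 0.001 after scaling. Only 36.7% of fibroblast scores were also multiples of 1/200. These are the steps that means of 3 and of 2 values with 2 decimals have, whereas the labels list 3 enriched libraries in each group. How many libraries entered each mean is not given in the sources used here. No score per library could be examined, so no difference between groups in these windows has a replicate check, and no test was made on them.

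In fibroblasts the 1990 windows were far from uniform, and their scores fell into a few narrow bands. The lowest was 0.0433, the median 0.67 and the highest 0.753, with quartiles of 0.437 and 0.68. Scores from 0.65 to below 0.75 were found in 1164 windows, or 58.5%, and scores from 0.35 to below 0.50 in 634, or 31.9%. Between these bands, from 0.50 to below 0.65, stood only 85 windows. A further small band, from 0.15 to below 0.25, held 84 windows, and 21 windows lay elsewhere below 0.35. The most common single score was 0.677, shared by 187 windows.

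The nearest comparison is with the 4733 autosomal windows that scored lower in calvarial-OB than in fibroblasts without reaching 0. Their fibroblast scores had a median of 0.58, with 45.0% in the upper band, 37.9% in the middle band and 14.3% between them, against 4.27% between them in the windows at 0. That class must score higher in fibroblasts than in calvarial-OB, whereas any fibroblast score above 0 meets that condition in the windows at 0. In calvarial-OB these 4733 windows ranged from 0.045 to 0.545 with quartiles of 0.27 and 0.335. These are group means, and whether a mean such as 0.27 joins libraries with signal and libraries at 0 was not tested. The same holds for the bands of the fibroblast scores. Of all autosomal windows in the upper fibroblast band, 35.4% were at 0 in calvarial-OB, against 33.1% from 0.15 to below 0.25, 22.2% in the middle band, 8.45% between these 2 main bands and 5.74% from 0.25 to below 0.35. Below 0.15 it was 18.9% of 37 windows, and from 0.75 upwards 14.3% of 14.

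**Figure D1:**
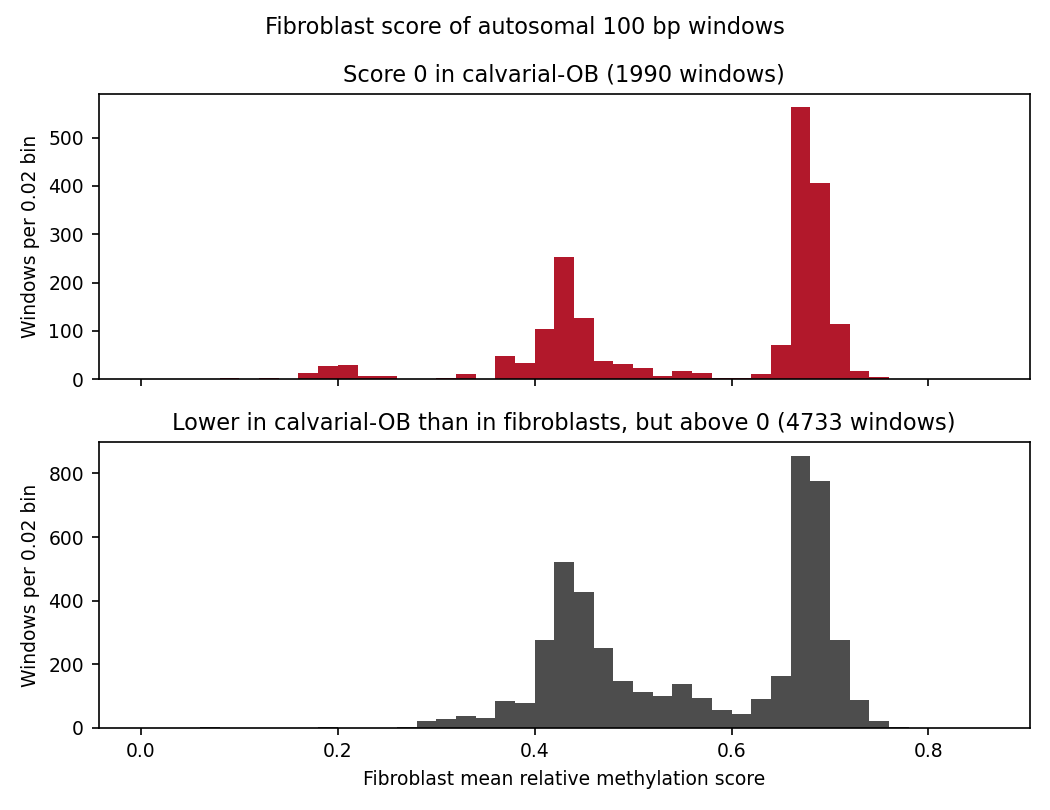
Number of autosomal windows (y axis) by fibroblast mean relative methylation score (x axis, no unit, bins of 0.02), for the 1990 windows at 0 in calvarial-OB (top) and the 4733 windows that were lower in calvarial-OB but above 0 (bottom). Both sets have peaks near 0.43 and 0.67. The windows at 0 also have a small group near 0.2, a range that held 163 further windows which were not lower in calvarial-OB and are not drawn.

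The limits of the choice can be shown by the windows beside them. The 3 chosen windows with the lowest fibroblast scores were chr9:78243701-78243800 at 0.0433, chr10:82448001-82448100 at 0.07 and chr10:82448201-82448300 at 0.0867. Just outside, the 3 lowest calvarial-OB scores above 0 were 0.045 at chr7:91032401-91032500, 0.05 at chr8:69384701-69384800 and 0.065 at chr1:114167801-114167900. Of these, only the window on chromosome 1 had a substantial fibroblast score, 0.42. A further 4 autosomal windows were at 0 in both fibroblasts and calvarial-OB and were left out by the choice.

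At the other end stood windows that went from among the highest fibroblast scores to 0. The touching pair chr3:150405301-150405400 and chr3:150405401-150405500 scored 0.753 each in fibroblasts, chr5:39428101-39428200 scored 0.743, and chr10:87453401-87453500 and chr10:87453601-87453700 scored 0.74. Next came chr6:7584401-7584500 and chr8:119018801-119018900 at 0.737 and chr10:27535101-27535200 at 0.733. Each of these 8 windows scored 0 in iOB as well as in calvarial-OB. Coordinates are those of the deposited table. The submitters' processing notes name the mm9 build, and on 8 autosomes the windows run past the last annotated gene of GRCm38, the only build for which gene positions were at hand. Genes, CpG content and sequences at the windows were therefore not analysed here.

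The iOB score asks whether cells derived from the tail-tip fibroblasts also lacked signal at these windows. It was exactly 0 in 1979 of the 1990 windows, or 99.4% (95% exact Clopper-Pearson interval 99.0% to 99.7%, which covers counting error only and takes neighbouring windows as independent). Over all 7726 autosomal windows the share at 0 in iOB was 98.4%, and over the 5736 windows outside the set it was 98%. Among the 4733 windows that were lower in calvarial-OB but above 0 it was 99.2%. A share near that of all autosomal windows is not a result about the windows at 0 in calvarial-OB. Of the 999 autosomal windows that scored above 0 in calvarial-OB and at least as high as in fibroblasts, 92.1% were at 0 in iOB. How the authors selected the windows is not given in the sources used here, so the part of that selection in these shares was not tested.

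The 11 exceptions were all higher in iOB than in fibroblasts, and no window of the set had an iOB score above 0 that was equal to or below its fibroblast score. In the 116 windows above 0 in iOB outside the set, 62 scored higher in iOB than in fibroblasts and 54 did not. In the class that was lower in calvarial-OB but above 0, 37 windows were above 0 in iOB. Of these 37, 19 scored higher in iOB than in fibroblasts and 18 did not. The direction was not compared at like fibroblast scores, so it is not shown to be particular to the set. All windows came from the authors' list of differentially methylated regions, and the part of that selection in the direction was not tested. The 11 windows lay in 7 separate places on 5 chromosomes, with fibroblast scores of 0.0433 to 0.307 (median 0.123) and iOB scores of 0.27 to 0.695 (median 0.385). All of them were among the 105 chosen windows below 0.35 in fibroblasts, of which they made up 10.5%, and none was among the 1885 at or above 0.35. By fibroblast score they were 7 of 7 chosen windows below 0.15, 2 of 84 from 0.15 to below 0.25 and 2 of 14 from 0.25 to below 0.35. In the windows that were lower in calvarial-OB but above 0, 19 of the 123 below 0.35 in fibroblasts had an iOB score above 0, or 15.4%. Of those 123, 111 scored from 0.25 to below 0.35 in fibroblasts, against 14 of the 105, so the shares cover unlike scores and were not compared.

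Of these places, 2 were runs of 3 touching windows on chromosome 10. At chr10:126963701-126963800, chr10:126963801-126963900 and chr10:126963901-126964000 the fibroblast scores were 0.147, 0.123 and 0.123 and the iOB scores 0.695, 0.595 and 0.585. At chr10:82448001-82448100, chr10:82448101-82448200 and chr10:82448201-82448300 they were 0.07, 0.09 and 0.0867 in fibroblasts and 0.28, 0.315 and 0.315 in iOB. Touching windows can be covered by the same fragments, so each run is closer to 1 observation than to 3. The first run held the highest iOB score of the set.

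The other 5 places were single windows. The iOB score of chr4:144431001-144431100 was 0.63 against 0.183 in fibroblasts, and that of chr12:33591001-33591100 was 0.385 against 0.17. At chr9:78243701-78243800 the scores were 0.27 and 0.0433. The differences were smallest at chr11:3025501-3025600, with 0.385 in iOB and 0.3 in fibroblasts, and at chr10:50214901-50215000, with 0.37 and 0.307. In 9 of the 11 windows the iOB score was more than 2 times the fibroblast score. At all of them calvarial-OB were at 0, so the order of the group means was iOB, fibroblast, calvarial-OB.

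**Figure D2:**
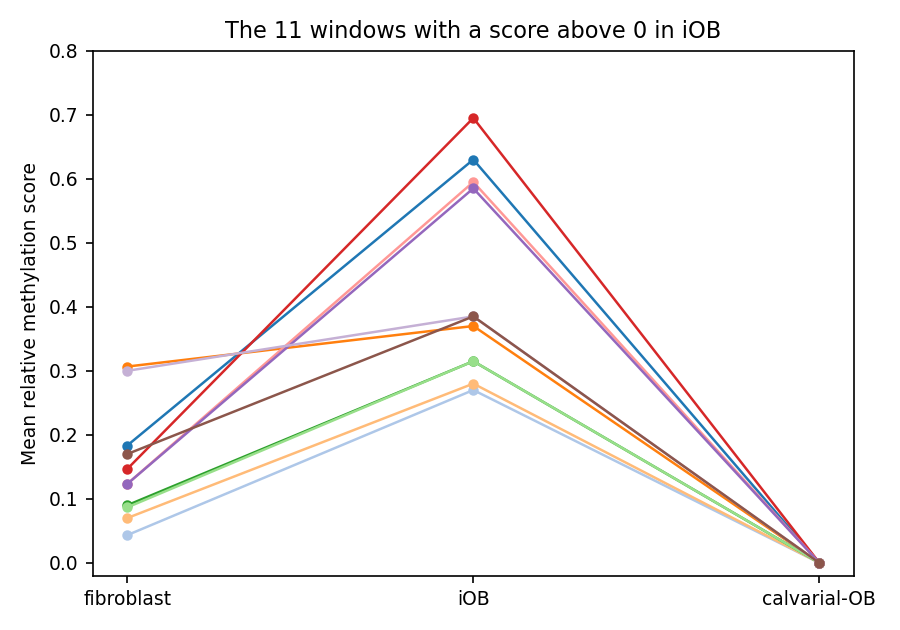
Mean relative methylation score (y axis, no unit) in fibroblasts, iOB and calvarial-OB (x axis) for the 11 windows at 0 in calvarial-OB with a score above 0 in iOB, with 1 line per window and 1 deposited group mean per point. Every line rises from fibroblasts (0.0433 to 0.307) to iOB (0.27 to 0.695) and ends at 0.

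Many windows of the set touched one another. The 1990 windows formed 1552 separate runs, of which 1201 were single windows, 284 were pairs, 51 were runs of 3 and 16 were longer. In all, 789 windows, or 39.6%, touched another window at 0 in calvarial-OB. Among the 4733 windows that were lower but above 0, 51.2% touched one of their own kind, but that class is larger, so the shares were not compared. The fibroblast score was about the same whatever the length of the run, with medians of 0.667 for single windows, 0.67 for pairs and 0.67 for runs of 3 or more. The share in the upper band was 58.2%, 59.5% and 58.4% in the same order.

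The table also gives the scores of the windows beside the set. Of 2841 pairs of touching autosomal windows in the table, 438 had both windows at 0 in calvarial-OB and above 0 in fibroblasts, 137 had 1 such window and 2266 had none. Only 132 of the 1990 windows touched a deposited window outside the set, while 1090 touched no deposited window at all. The 136 outside windows above 0 in calvarial-OB that touched the set had a median calvarial-OB score of 0.27 with quartiles of 0.27 and 0.275. The other 5596 had a median of 0.31 and quartiles of 0.27 and 0.365. Their fibroblast scores were alike, with medians of 0.515 and 0.513. Between touching windows that were both at 0 in calvarial-OB, the fibroblast scores differed by a median of 0.03, against 0.0633 between touching windows outside the set.

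The longest run spanned 7 windows, 700 bp, at chr10:27540301-27541000. Its fibroblast scores were 0.433, 0.56, 0.447, 0.52, 0.427, 0.493 and 0.44 from first to last, all below the upper band, and 0.56 and 0.52 lay between the bands. Signal in calvarial-OB returned on both sides of it. Going towards the run, the outside windows had calvarial-OB scores of 0.58, 0.545, 0.455 and, in the window that touches it, 0.21, while their fibroblast scores were 0.49, 0.483, 0.437 and 0.533. Beyond the run, the next deposited window, which starts 1300 bp from the first base of the run, scored 0.445 in calvarial-OB and 0.457 in fibroblasts. Fibroblast scores were thus similar across the whole stretch, and the calvarial-OB score was at or above the fibroblast score in 3 of the 5 flanking windows and at 0 between them. The iOB score was 0 in all 12 windows.

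The next longest runs had no deposited window within 1000 bp on either side. The run at chr12:75151501-75152000 covered 500 bp, and its 5 windows scored 0.72, 0.71, 0.72, 0.713 and 0.657 in fibroblasts. At chr4:84664501-84664900 the 4 windows scored 0.697, 0.703, 0.693 and 0.677, and at chr3:18757301-18757700 they scored 0.67, 0.673, 0.697 and 0.693. In these 3 runs every window belonged to the upper band. The run at chr6:42829401-42829800 scored 0.687, 0.717 and 0.707 and then dropped to 0.437 in its last window, from the upper to the middle band within 100 bp. The iOB scores of these 4 runs were 0 throughout.

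**Figure D3:**
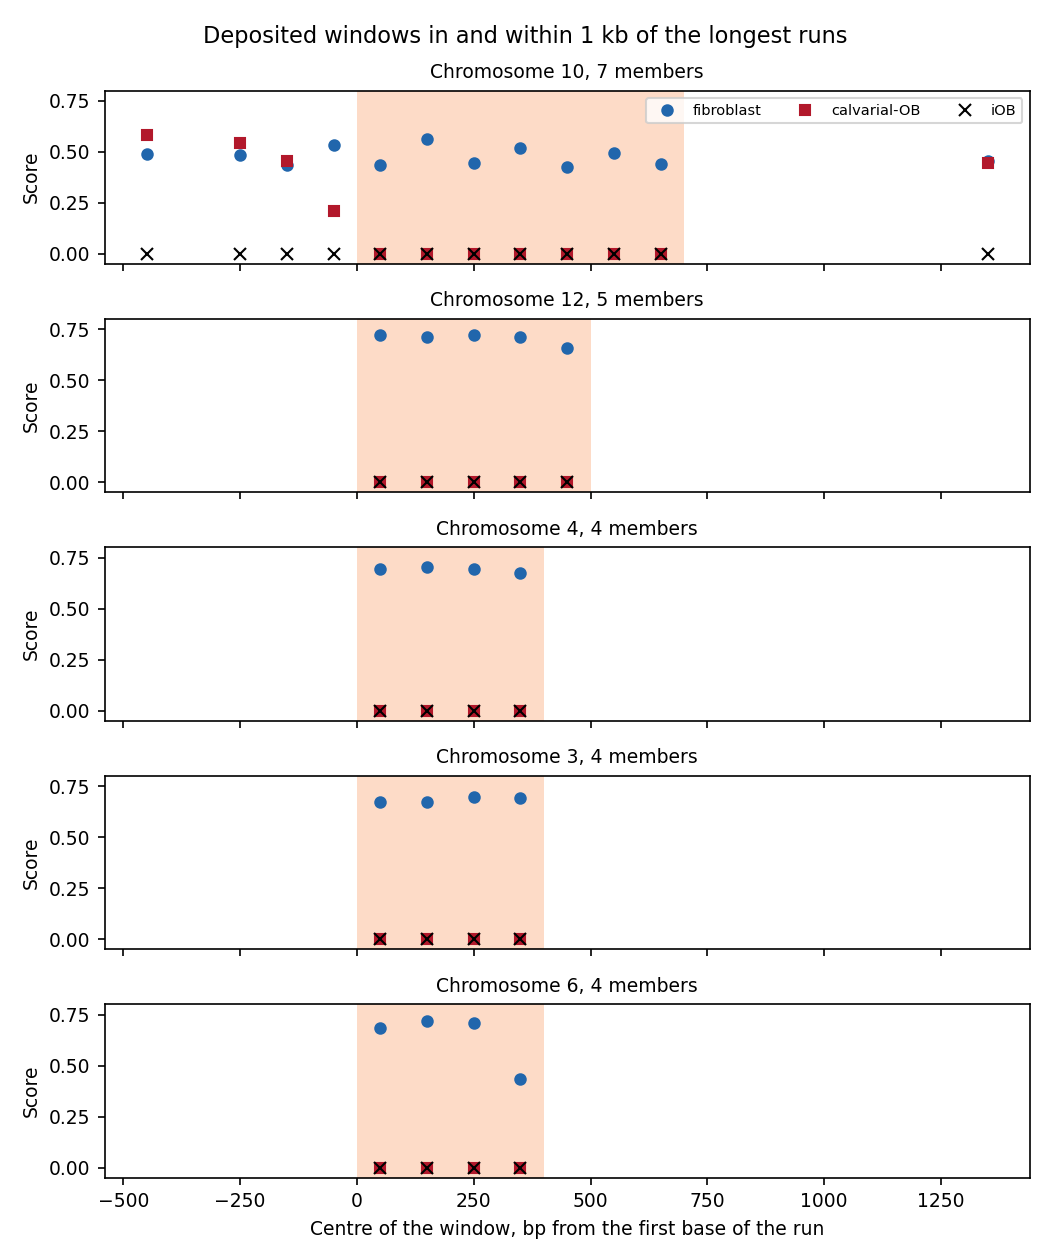
Mean relative methylation score (y axis, no unit) of each deposited window in and within 1 kb of the 5 longest runs at 0 in calvarial-OB, by distance in bp from the first base of the run (x axis), with circles for fibroblasts, squares for calvarial-OB and crosses for iOB, and the run shaded. Only the run on chromosome 10 has flanking windows, where calvarial-OB scores of 0.21 to 0.58 surround 7 windows at 0.

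The windows were spread over all 19 autosomes. They made up 25.8% of the deposited autosomal windows, and between 16.1% and 31.9% on single chromosomes (median 25.8%). The lowest share was on chromosome 15, with 50 of 311 windows, and chromosome 14 came next with 80 of 393, or 20.4%. The highest shares were on chromosome 4, with 154 of 483, chromosome 17, with 90 of 286 or 31.5%, and chromosome 19, with 35 of 113 or 31.0%. Chromosome 1 had the most, 168, or 26.8% of its windows. Chromosome 15 also had the lowest median fibroblast score of the set, 0.553, where the other chromosomes had medians of 0.642 to 0.673. Only 85 of the 1990 windows scored from 0.50 to below 0.65, so a median in that range need not be a common score. Of the 11 windows above 0 in iOB, 7 lay on chromosome 10.

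**Figure D4:**
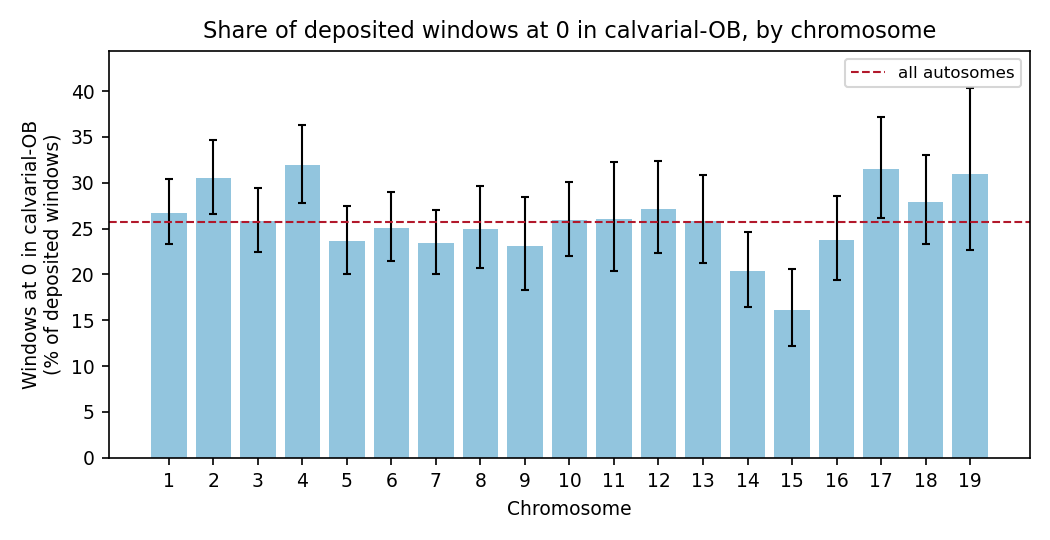
Percent of the deposited windows of each autosome (x axis) that were at 0 in calvarial-OB and above 0 in fibroblasts (y axis), with 95% exact Clopper-Pearson intervals for counting error as bars and the share over all autosomes, 25.8%, as a dashed line. Chromosome 15 is the lowest at 16.1% and chromosome 4 the highest at 31.9%.

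On a finer scale the windows were scattered, with some dense places. Cut into pieces of 1000000 bp, the autosomes had 997 pieces with at least 1 window of the set, of which 471 had only 1 and 56 had 5 or more. For windows that touched no other of the set, the nearest other lay a median of 307600 bp away. The densest piece, between 121000001 and 122000000 on chromosome 4, had 11 deposited windows in 6 separate runs, and all 11 were at 0 in calvarial-OB, with fibroblast scores of 0.413 to 0.7. On chromosome 3, between 98000001 and 99000000, all 8 deposited windows belonged to the set, in 4 runs with scores of 0.403 to 0.693. Chromosome 17 between 58000001 and 59000000 had 9 of 11 and chromosome 4 between 71000001 and 72000000 had 9 of 10. The piece of chromosome 10 that holds the 7-window run was mixed, with 10 of 26, and the 16 others there scored 0.21 to 0.58 in calvarial-OB.

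RNA libraries of the same cell types, 3 per group with 5646299 to 15023771 counts each, give the level of the genes that write, copy, read and remove the mark. Levels are CPM (counts divided by the TMM-scaled library size, on the usual scale), and changes are log2 fold changes ± SE from edgeR's quasi-likelihood test with Benjamini-Hochberg adjustment over 13438 genes, called at an adjusted p below 0.05. Only the titles of the calvarial-OB RNA libraries carry the words dataset 2, which the labels do not explain. Any difference that these words mark cannot be told apart from the cell type. In these cultures fewer cells of a type and less RNA per cell cannot be told apart either. The 8 fibroblast markers summed to 25644 to 28274 CPM in the fibroblast libraries, 16885 to 18150 in calvarial-OB and 10805 to 12279 in iOB, and 3 of them were higher and 4 lower in calvarial-OB than in fibroblasts. All 10 osteoblast markers and all 10 measured macrophage markers were higher in calvarial-OB than in fibroblasts, where 28.4% of all tested genes were higher. The summed macrophage markers were at 31.9 to 68.7 CPM in fibroblasts, 3293 to 5955 in calvarial-OB and 2056 to 3341 in iOB, with none at 0 counts in any group. The 7 adipocyte markers summed to 131 to 144 CPM in fibroblasts, where 3 had 0 counts, and to 1121 to 1827 in calvarial-OB and 285 to 341 in iOB. Lpl alone made up most of each sum, at 97.8 to 117, 702 to 1124 and 254 to 308 CPM in the same order. In iOB 6 of the 7 were higher than in fibroblasts and 1, Fabp4, was lower, against 22.7% and 20.6% of all tested genes. The part of such cells in the methylation scores was not tested.

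Of 22 measured genes of the DNA methylation machinery, 5 were higher and 6 lower in calvarial-OB than in fibroblasts, against 28.4% and 27.4% of all tested genes, and the median change was 0.01 against 0.02 over all genes. The list thus followed the background. Dnmt3a, a methyltransferase gene for unmethylated DNA, stood at 43.9, 35.1 and 30.3 CPM in the fibroblast libraries and at 94.6, 73.9 and 67.9 CPM in calvarial-OB. The groups did not overlap, which held for 60.5% of all tested genes, and the gene rose by 1.11 ± 0.16 (edgeR adjusted p = 9.7e-05). Dnmt1, the maintenance enzyme gene, was at 63.2, 74.8 and 76.6 CPM in fibroblasts and at 73.0, 78.7 and 71.3 in calvarial-OB. Its log2 fold change of 0.06 ± 0.11 was not called (edgeR adjusted p = 0.70), nor were those of Uhrf1, whose protein brings DNMT1 to replicated DNA (0.17 ± 0.21, adjusted p = 0.51), and of the methyltransferase gene Dnmt3b (0.74 ± 0.37, adjusted p = 0.11). Dnmt3b had only a few CPM and was called when fibroblast replicate 1 was left out (adjusted p = 0.037).

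Among the oxidizing enzymes, Tet1 was at 7.44, 7.22 and 4.07 CPM in fibroblasts and at 12.0, 10.3 and 10.7 in calvarial-OB, and rose by 0.83 ± 0.24 (edgeR adjusted p = 0.011). Tet2 was not called (-0.13 ± 0.18, adjusted p = 0.57). Tet3 fell by 0.50 ± 0.16 (adjusted p = 0.019), with overlapping groups, and its call was lost without fibroblast replicate 1 or 2 (adjusted p = 0.055 and 0.082) or calvarial-OB replicate 2 or 3 (0.095 and 0.097). Gadd45b, a stress gene linked to demethylation, rose by 1.24 ± 0.39 (adjusted p = 0.017). Its call rested in part on calvarial-OB replicate 1 at 140 CPM, where the others had 46.1 and 40.4. The log2 fold change was 0.43 without that library, and the call was lost without fibroblast replicate 2 or 3 (adjusted p = 0.052 and 0.060). Smug1, a repair glycosylase gene, had a log2 fold change of -0.44 ± 0.17 (adjusted p = 0.040) that ended above the threshold under most alternatives (adjusted p 0.028 to 0.10).

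The genes listed here as readers moved in both directions. Zbtb38 and Zbtb33, which encode zinc-finger readers, fell by 1.71 ± 0.12 (edgeR adjusted p = 2.9e-07) and 1.26 ± 0.17 (adjusted p = 4.9e-05). Mbd2 and Mbd3 rose by 0.54 ± 0.10 and 0.50 ± 0.12. Uhrf2, a relative of Uhrf1 that was listed with the writing and maintenance genes, fell by 0.51 ± 0.11. The capture reagent of the assay is added protein, so the cells' own Mbd2 level is not part of the measurement.

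In iOB the copying genes Dnmt1 and Uhrf1 were lower than in fibroblasts. Of the 22 genes 2 were higher and 9 lower, where 22.7% and 20.6% of all tested genes were, with the fibroblast libraries shared by both comparisons. Dnmt1 was at 43.1, 51.1 and 52.2 CPM and fell by 0.55 ± 0.11 (edgeR adjusted p = 0.0022), and Uhrf1 was at 8.47, 9.17 and 14.4 CPM and fell by 1.63 ± 0.23 (adjusted p = 1.5e-04). All iOB values of both genes lay below all fibroblast values, and groups did not overlap for 63.0% of all tested genes. Dnmt3a rose by 0.93 ± 0.16 (adjusted p = 5.8e-04), Tet3 fell by 0.64 ± 0.16 (adjusted p = 0.0077), and Dnmt3b, Tet1 and Tet2 were not called (-0.05 ± 0.40, -0.32 ± 0.26 and 0.03 ± 0.18).

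Compared with iOB directly, calvarial-OB had 7 of the 22 genes higher and 2 lower, against 24.1% and 24.7% of all tested genes, and 6 lower when calvarial-OB replicate 1 was left out. Uhrf1, Dnmt1 and Tet1 were higher in calvarial-OB by 1.80 ± 0.23 (edgeR adjusted p = 6.7e-05), 0.61 ± 0.11 (adjusted p = 0.0010) and 1.15 ± 0.25 (adjusted p = 0.0026). Dnmt3a, Dnmt3b, Tet2 and Tet3 were not called (0.18 ± 0.16, 0.78 ± 0.38, -0.15 ± 0.18 and 0.14 ± 0.16). RNA and methylation libraries were separate samples, and no link between them was tested.

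**Figure D5:**
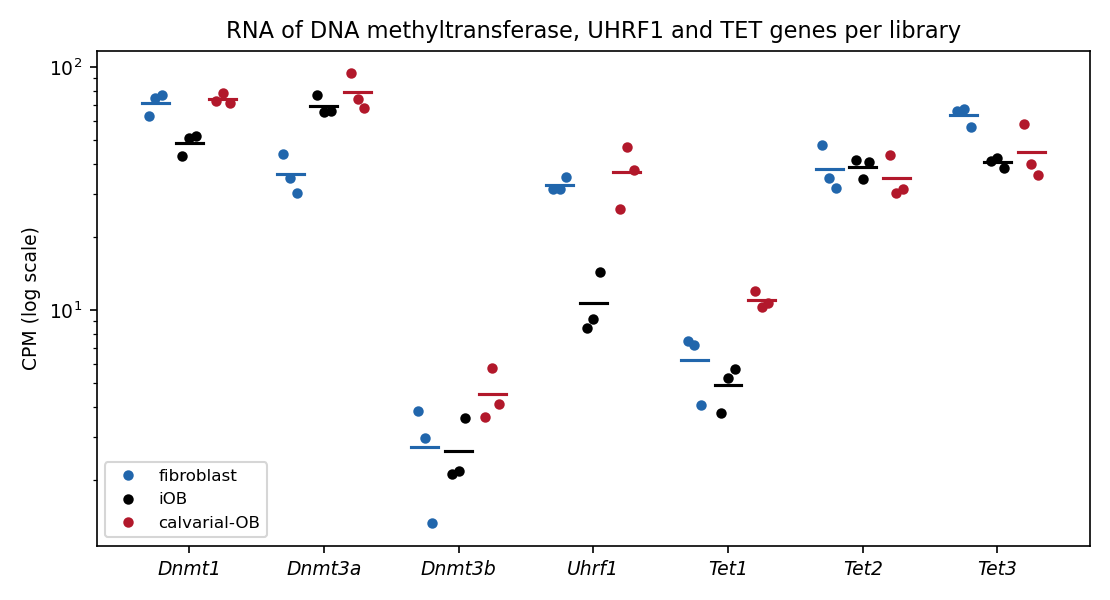
RNA level in CPM (y axis, log scale) of 7 genes that write, copy or oxidize DNA methylation (x axis), with 1 point per library (3 per group) and a bar at the group mean. Dnmt3a is higher in both osteoblast groups than in fibroblasts, and Dnmt1 and Uhrf1 are lower in iOB than in the other groups.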

How the data were processed

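Per the file headers, the values deposited for each 100 bp window are group means (fibroblast, iOB, OB) of a relative methylation score. OB was taken as calvarial-OB. Bowtie2, STAR 2.4.2a, R 3.2.2, DESeq2 and the mm9 build appear without roles in the submitters' processing notes. The selection of windows and the use of the inputs are not given in the sources used here. The authors also deposited raw counts per gene symbol for 9 RNA libraries; the counting tool and strand setting are not given in the sources used here.

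Windows were counted with Python 3.11.15, pandas 2.3.3 and scipy 1.17.1. Windows whose starts differ by 100 bp were called touching. Counts were fitted in R 4.3.3 with edgeR 4.0.16 (glmQLFit, TMM, filterByExpr, group as the only term). The SE is the absolute log2 fold change over the square root of F. The edgeR step was tested on simulated data. Replicates are not said to come from separate cultures, so p-values measure only the spread between these samples. Members, gene lists and naming rules were chosen with earlier results of these data known. Windows were named by highest fibroblast score (8), longest runs (5, ties by summed fibroblast score), highest iOB score (5), iOB at 0 with the highest fibroblast score (5) and nearness to the limits of the choice (3 on each side). Genes were named if called in calvarial-OB against fibroblasts, or among Dnmt1, Dnmt3a, Dnmt3b, Tet1, Tet2, Tet3 and Uhrf1. Tdg was not matched in the count table. The values of 1 called gene are not reported here.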

Additional observations from a re-analysis of the deposited data

How the results depend on the processing

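With windows limited to fibroblast scores at or above the median of the set (1000 windows), 100.0% were at 0 in iOB, 26.6% touched another of the set, and shares per chromosome ran from 6.43% to 16.8%, because fewer windows count. With touching windows merged, 22.6% of runs held more than 1 window and the lowest chromosome share was 22.2%. With chromosomes X and Y added, 2126 of 2262 windows, or 94.0%, were at 0 in iOB, against 1979 of 1990 on autosomes alone. The added X and Y windows were thus at 0 in iOB less often than the autosomal windows. The share at 0 in iOB over all deposited X and Y windows is not given here. The difference is therefore not shown to be particular to windows at 0 in calvarial-OB. Of the 2262 windows, 42.8% touched another. Leaving out chromosome 1 or taking a calvarial-OB score below 0.10 in place of 0 (chosen after seeing the data, 2023 windows) moved none of these shares beyond its interval, nor did an iOB score below 10% of the fibroblast score move the share without iOB signal. For RNA, leaving out 1 library gave 2 to 6 machinery genes lower in calvarial-OB than in iOB. Changes that were not called turned direction when 1 library was left out. Against fibroblasts the log2 fold change in calvarial-OB then ran from -0.031 to 0.11 for Dnmt1, -0.32 to 0.067 for Tet2 and -0.010 to 0.35 for Uhrf1. In iOB it ran from -0.37 to 0.34 for Dnmt3b (4.1e-04 with only these groups fitted) and -0.058 to 0.22 for Tet2, and in calvarial-OB against iOB from -0.018 to 0.26 for Dnmt3a and -0.15 to 0.26 for Tet3. The cause was not tested. Numbers of called genes over all tested genes stayed within 1.5 times of those reported under DESeq2, upper-quartile scaling, no filter, the groups of a comparison alone and each library left out. Same-numbered libraries did not deviate together (correlations -0.15 to 0.15, above 0.1 in 2 of 9 pairs), and in 5 of 18 checks a library correlated best with its own number in another group. With the replicate number as a block, 3735 genes were higher and 3629 lower in calvarial-OB than in fibroblasts, with 5 machinery genes each way, and of the named genes only Smug1 lost its call (adjusted p = 0.064). Genes at the windows and their RNA were not run, as no mm9 annotation was at hand. Depth limits the scores in an unknown way.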

Other observations

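The same scores, 0 in calvarial-OB and above 0 in fibroblasts, were also found outside the autosomes. On chromosome X 268 of 1852 deposited windows had them, or 14.5%, a lower share than on any autosome. The labels give no sex, and its part in the share of chromosome X was not tested. On chromosome Y 4 of 21 windows had them, and among the unplaced sequences 27 of 117 windows of Y_random, 5 of 8 of 8_random, 1 of 9 of 1_random and 0 of 10 of Un_random.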
